A study of Danio rerio with 12 samples.

Results

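The genes described here are the chemokines and chemokine receptors of the zebrafish eye. They were chosen as every gene whose annotation in the deposited expression table holds the word "chemokine", whatever its level. This rule found 101 of the 37055 genes in the table. The annotation of 32 of them names a receptor, and the other 69 are ligands or ligand-like genes.

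RNA was sequenced from the eyes of 12 zebrafish, 6 wild type (WT) and 6 lrpap1-/- mutants (MU), all at the age of 3 months. Each sample was the pair of eyeballs of 1 fish. The mutants came from 1 stable line that is homozygous for a CRISPR-Cas9 frameshift in the first exon of lrpap1, the gene of a chaperone for receptors of the low-density lipoprotein receptor family. The study made this line to examine a form of high myopia, and the comparison here asks which genes of the chemokine system differed in level between the eyes of the mutant and of the wild type.

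Chemokines are small secreted proteins that guide moving cells. They are grouped as CC, CXC, CX3C and XC ligands by the spacing of conserved cysteines. Their receptors sit in the cell membrane and most of them signal through inhibitory G proteins, while the atypical receptors bind and remove chemokines without that signal. In the eye they are best known for drawing leukocytes to inflamed tissue, and the pair of Cxcl12 and Cxcr4 also guides migrating cells and growing axons during development. Teleost fish carry many chemokine genes that arose by tandem duplication and have no single counterpart in mammals.

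The ligands comprised 40 CC genes, 21 CXC genes, 1 CX gene and 1 XC gene. They also held 5 genes of the TAFA family (named fam19a in the table) and the gene cklf, whose products are chemokine-like. The receptors comprised 11 CC, 8 CXC and 6 XC receptors, 5 atypical receptors and 2 chemokine-like receptors. They lay on 20 chromosomes, and 69 of the 101 stood in 20 runs in which neighbours were no more than 200 kb apart. The longest run held 12 CC ligands at chr25:12841935-13050933 (GRCz11, coordinates of the deposited table). The next held 8 ligands at chr24:27397356-27531938. Reads of such near copies can be shared between genes, so the values of single duplicates are less certain than those of genes with no close copy.

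The total count per sample lay between 7988538 and 9829112, and the chemokine genes together took between 2807 and 6094 counts of it. Counts were scaled to CPM over library sizes adjusted by the TMM method of edgeR, and 1 count was then worth between 0.0973 and 0.132 CPM. Counts of the targeted gene were 214 to 273 for the wild type and 144 to 201 for the mutants, a log2 fold change of -0.52 (SE 0.11, adjusted p = 0.0108, edgeR), so the mutated transcript was still present. Wild-type replicate 3 stood apart, since crystallins, the proteins of the lens, made up 0.132% of its TPM, the deposited values scaled for gene length, against 12.4% to 20.4% in the other 11 samples. Of 20 retina markers, all were detected. Without wild-type replicate 3, 11 chemokine genes were called higher in the mutants in place of 10, and 1 was called lower with or without it.

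A small number of genes carried most of the chemokine RNA of the eye. TPM was used to compare genes with each other. The 5 ligands with the highest mean TPM over the 12 samples were ccl25b (157), ccl27b (71.4), cxcl12a (65.8), cxcl14 (54.1) and cxcl12b (39.1). Together they made up 64.1% ± 5.49 of the TPM of all ligands in the wild type and 57.4% ± 4.35 in the mutants (SD, n = 6 each), while 30 of the 69 ligands had a mean under 1 TPM. The 5 leading receptors were ccr9a (30.6 TPM), ackr3b (25.8), cxcr4b (19.9), ackr4b (9.73) and cxcr3.2 (5.35). They held 74.1% ± 3.03 of receptor TPM in the wild type and 74.5% ± 2.16 in the mutants, and 16 of the 32 receptors had a mean under 1 TPM.

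**Figure D1:**
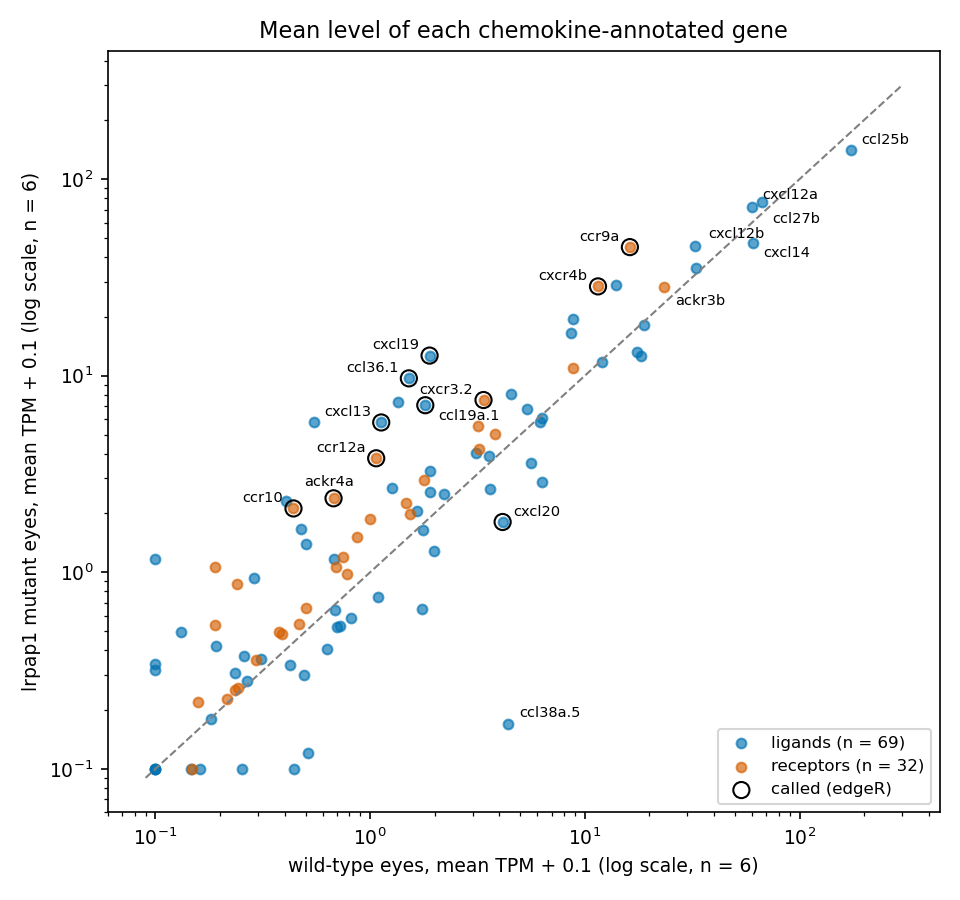
Mean TPM of each of the 101 chemokine-annotated genes in 6 wild-type eyes (x axis) and 6 mutant eyes (y axis), both on a log scale after adding 0.1 TPM, with ligands in blue and receptors in orange. The dashed line marks equal levels, and circled points are the 11 genes called by edgeR. The most abundant ligands lie close to the line, while ccr9a and cxcr4b are the called genes with the highest level.

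The filter on low counts left 39 of the 101 genes to be tested, 24 ligands and 15 receptors. The highest count in a sample among the other 62 genes was 57, and 3 of them had no count at all. A gene was called when its adjusted p was under 0.05 and its absolute log2 fold change over 1. By this rule 10 of the 39 genes were higher in the mutants, where 3.68% of all 18984 tested genes were, and 1 was lower, where 0.874% of all tested genes were. In both directions together 11 of the 39 were called, against 4.55% of all tested genes. At an adjusted p under 0.05 with no limit on the fold change, 14 of the 39 passed, against 11.2% of all tested genes. The CPM of the genotypes did not overlap, with the mutants higher, for 6 of the 39 genes (3.69% of all tested genes), and with the mutants lower for 1 (2.14% of all tested genes). In whole eyes, more cells of a type and more RNA per cell cannot be told apart.

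A difference between receptors and ligands was not tested. Of the 15 tested receptors, 6 were higher in the mutants. None was called lower by edgeR or DESeq2, and none had a negative log2 fold change at an unadjusted p under 0.05. All 15 receptors that passed the filter had a positive log2 fold change, from 0.17 to 2.42 with a median of 0.63. The median of all 18984 tested genes was -0.02, and 8991 of them had a positive value. Of the 24 tested ligands, 4 were higher and 1 lower, 11 had a positive and 13 a negative log2 fold change, and the median was -0.09. At an unadjusted p under 0.05, 7 ligands were higher and 3 lower. The share of all tested genes at this unadjusted p is not given here, so these counts cannot be set against it. The split of the calls differed between tools. Limma voom called 6 ligands and 4 receptors higher among the same 39 genes, where 842 of all 18984 genes were called higher. DESeq2 called 8 and 7 among 82 chemokine genes, where 4.67% of 23909 genes were called higher. The summed TPM of all receptors was 85.1 ± 34.8 in the wild type and 160 ± 50.5 in the mutants, with ranges of 58.6 to 154 and 96.4 to 211 that overlapped. In CPM, which is scaled by TMM, the ranges were 66.8 to 168 and 105 to 220 and overlapped as well. The summed TPM of all ligands was 604 ± 131 in the wild type and 659 ± 149 in the mutants. In CPM, the ligand sums ran from 247 to 438 in the wild type and from 252 to 415 in the mutants. The mutants were thus not higher as a group on this scale.

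The filter bears on these counts, signs and medians, because a gene that is low in the wild type can pass it through the mutants alone. It asked for 1.0905 CPM, on library sizes without TMM, in at least 6 samples. All 6 wild-type samples were over this level for 23 of the 39 genes, which were 16 ligands and 7 receptors. Thus 3 of these 23 were among the 10 called higher, namely ccr9a, cxcr4b and cxcr3.2. The share called among all genes over this level in all 6 wild-type samples was not computed. Whether 3 of 23 is more than that share therefore cannot be said. The other 7 genes called higher passed with the help of mutant samples, and for ccr10, cxcl13 and cxcl19 no wild-type sample was over the level. In the fit without the filter, the log2 fold changes of the untested receptors ran from -1.85 to 3.14. The medians of that fit were 0.57 for receptors and 0.06 for ligands. The positive sign of all tested receptors thus does not extend to every receptor.

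**Figure D2:**
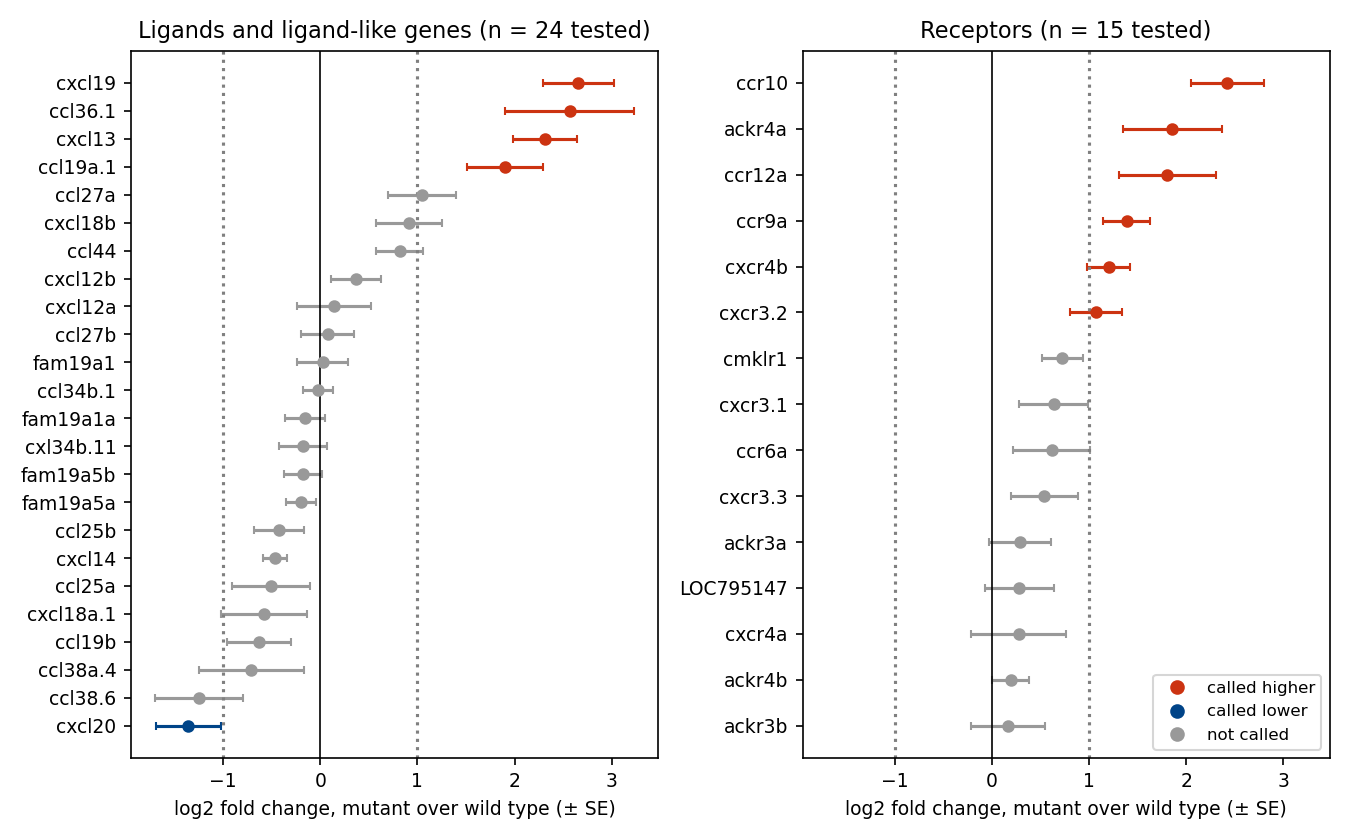
Log2 fold change of mutant over wild type (x axis, point, with the standard error as bar) for the 24 tested ligands on the left and the 15 tested receptors on the right, sorted by value. Red marks genes called higher, blue the gene called lower, and dotted lines the fold threshold of 1. All 15 receptors that passed the filter lie to the right of 0, while the tested ligands lie on both sides.

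The 4 ligands that rose were cxcl13, ccl19a.1, cxcl19 and ccl36.1, and all 4 were scarce in the wild type. In mammals the homeostatic chemokine CXCL13 and the CCR7 ligand CCL19 are known from lymphoid tissue. The names cxcl19 and ccl36.1 are used in fish. Of the Ccl19 genes only ccl19a.1 was called, and the more abundant ccl19b had a log2 fold change of -0.63 (edgeR adjusted p = 0.231).

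For cxcl19 (chr7:7806745-7810286), the wild-type samples had 0.309, 0.587 and 0.823 CPM (lowest, median, highest) and the mutants 1.42, 3.63 and 6.46 CPM. Every mutant was above every wild-type fish, and mutant replicate 1 was the highest. Its log2 fold change of 2.66 (SE 0.36, edgeR adjusted p = 0.000588) was the largest among the tested ligands.

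For cxcl13 (chr5:38784777-38786487), whose product attracts B cells in mammals, the values were 0.264, 0.463 and 0.588 CPM in the wild type and 1.25, 2.12 and 3.41 CPM in the mutants. The genotypes did not overlap, and the log2 fold change was 2.31 (SE 0.33, edgeR adjusted p = 0.000717). The gene overlaps cnot6l on the opposite strand, which had up to 520 counts per sample and a log2 fold change of -0.23 (adjusted p = 0.129). Whether counting used strand is not given in the sources used here, and reads of the pair may be mixed. The receptor of Cxcl13, cxcr5, had 9 counts over the 6 wild-type and 11 over the 6 mutant samples and was not tested.

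For ccl36.1 (chr7:39705979-39707168), 0, 0.322 and 2.12 CPM were measured in the wild type and 2.16, 3.10 and 7.30 CPM in the mutants. The groups stood apart by a narrow gap, with wild-type replicate 2 just below mutant replicate 5. The log2 fold change was 2.57 with a wide SE of 0.66 (edgeR adjusted p = 0.0237), and the call was lost without wild-type replicate 6 (adjusted p = 0.0542), mutant replicate 1 (0.0539) or mutant replicate 2 (0.0604).

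For ccl19a.1 (chr5:13353860-13392579), the wild type had 0.447, 0.772 and 1.85 CPM and the mutants 1.82, 3.12 and 5.09 CPM. Only wild-type replicate 1 reached the level of the lowest mutant, replicate 6. The log2 fold change was 1.90 (SE 0.39, edgeR adjusted p = 0.00727). The gene overlaps its duplicate ccl19a.2 on the same strand and ube2l3b on the opposite strand. The latter had up to 1272 counts per sample and a log2 fold change of 0.12 (adjusted p = 0.359), so some of the reads given to ccl19a.1 may belong to it.

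The 1 ligand that fell was cxcl20 (chr5:42896664-42904352), which lies in a run with 4 genes annotated as cxcl11 duplicates or their like. Its wild-type samples had 1.54, 2.36 and 3.50 CPM and its mutant samples 0.434, 0.985 and 1.46 CPM, with no overlap. Its log2 fold change was -1.36 (SE 0.33, edgeR adjusted p = 0.0188). Without wild-type replicate 6, the highest of its group, it was -1.195 and no longer called (adjusted p = 0.0518).

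The ligands cxcl14 and ccl44 passed the adjusted p but not the fold threshold. Levels of cxcl14, known in mammals as an epithelial chemokine, were 46.1, 60.9 and 65.5 CPM in the wild type and 34.8, 41.0 and 54.1 CPM in the mutants, a log2 fold change of -0.47 (SE 0.12, edgeR adjusted p = 0.0257). Levels of ccl44 were 1.65, 2.98 and 4.47 CPM and 4.00, 5.34 and 7.42 CPM, a log2 fold change of 0.82 (SE 0.24, edgeR adjusted p = 0.0447). The ranges of both genes overlapped between the genotypes.

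The other leading ligands were not called. For ccl25b, the most abundant, the wild type had 50.02, 77.1 and 109 CPM and the mutants 30.9, 58.9 and 89.8 CPM, a log2 fold change of -0.42 (SE 0.26, edgeR adjusted p = 0.308). For ccl27b, whose counterpart in mammals is made by skin, it was 0.08 (SE 0.27, adjusted p = 0.891). The genes cxcl12a and cxcl12b had log2 fold changes of 0.14 (SE 0.38, adjusted p = 0.848) and 0.37 (SE 0.26, adjusted p = 0.386). The standard error of cxcl12a leaves room for a moderate change in either direction, and that of cxcl12b for a moderate rise. The 4 tested TAFA genes, which are neuronal in mammals, had log2 fold changes between -0.20 and 0.03.

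Receptors that rose included both abundant and scarce genes. The most abundant was ccr9a (chr2:32796896-32799080), the receptor of Ccl25 that guides lymphocytes to thymus and gut in mammals. Its wild-type samples had 11.8, 14.1 and 30.7 CPM and its mutant samples 25.6, 44.5 and 53.9 CPM. Wild-type replicate 5 was above the lowest mutant, replicate 5, and the other 5 wild-type fish had at most 14.5 CPM, below every mutant. The log2 fold change was 1.39 (SE 0.24, edgeR adjusted p = 0.00301), and 1.69 (adjusted p = 0.000181) without wild-type replicate 5.

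For cxcr4b (chr9:10692955-10694930), 1 of the pair of zebrafish receptors for Cxcl12, the values were 7.38, 10.1 and 15.3 CPM in the wild type and 15.6, 23.5 and 32.4 CPM in the mutants. The groups did not overlap, but the highest wild-type and the lowest mutant sample were close. Mutant replicates 1, 2 and 3 had 32.4, 29.2 and 30.3 CPM, and mutant replicates 4, 5 and 6 had 17.6, 15.6 and 17.8 CPM. It had a log2 fold change of 1.203 (SE 0.22, edgeR adjusted p = 0.00404).

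For cxcr3.2 (chr16:11818136-11825303), which in zebrafish draws macrophages towards Cxcl11-type ligands, the wild type had 2.06, 3.56 and 4.41 CPM and the mutants 4.43, 6.82 and 11.1 CPM. The groups met without overlap in CPM. In TPM they overlapped, with 4.56 in wild-type replicate 5 and 4.44 in mutant replicate 4. The log2 fold change of cxcr3.2 was 1.07 (SE 0.27, edgeR adjusted p = 0.0207). It stood near the fold threshold and fell under it, at 0.97, 0.92 and 0.999, without wild-type replicate 6, mutant replicate 2 or mutant replicate 3. Its neighbours cxcr3.3 and cxcr3.1 had log2 fold changes of 0.54 (SE 0.35, adjusted p = 0.337) and 0.63 (SE 0.35, adjusted p = 0.264) and were not called.

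The scarce receptors ccr10, ackr4a and ccr12a had the largest fold changes among the 15 tested receptors. For ccr10 (chr24:36673689-36680261), which binds CCL27 and CCL28 in mammals, the wild type had 0.206, 0.499 and 0.924 CPM and the mutants 1.29, 2.63 and 3.68 CPM. No mutant was as low as any wild-type fish. This was a log2 fold change of 2.42 (SE 0.38, edgeR adjusted p = 0.00144).

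For ackr4a (chr2:31671285-31675514), an atypical receptor whose mammalian counterpart removes CCL19, CCL21 and CCL25, the values were 0.112, 0.924 and 1.56 CPM in the wild type and 0.682, 3.10 and 5.06 CPM in the mutants. Mutant replicate 6 lay within the wild-type range and the other 5 mutants above it. The log2 fold change was 1.86 (SE 0.51, edgeR adjusted p = 0.0314). The adjusted p rose to between 0.0519 and 0.0775 when wild-type replicate 6 or mutant replicate 1, 2, 3 or 4 was left out, and to 0.0658 with limma voom, and the call was then lost.

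For ccr12a (chr2:49983831-49985368), the wild type had 0.112, 0.713 and 1.54 CPM and the mutants 1.14, 2.02 and 6.62 CPM. Mutant replicate 2 stood far above the other mutants, whose highest value was 3.03 CPM. The log2 fold change was 1.80 (SE 0.50, edgeR adjusted p = 0.0331), and without that fish it was 1.34 and no longer called (adjusted p = 0.0861). The call was also lost without wild-type replicate 1, 2, 4 or 6 or mutant replicate 1 or 3 (adjusted p between 0.0517 and 0.0649) and with limma voom (0.0505).

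The chemokine-like receptor cmklr1, the receptor of chemerin in mammals, passed the adjusted p but not the fold threshold. It had 3.80, 5.72 and 8.42 CPM in the wild type and 7.40, 10.3 and 12.4 CPM in the mutants, a log2 fold change of 0.72 (SE 0.21, edgeR adjusted p = 0.0381). The abundant atypical receptors ackr3b, which removes Cxcl12, and ackr4b had log2 fold changes of 0.17 (SE 0.38, adjusted p = 0.824) and 0.19 (SE 0.19, adjusted p = 0.564).

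**Figure D3:**
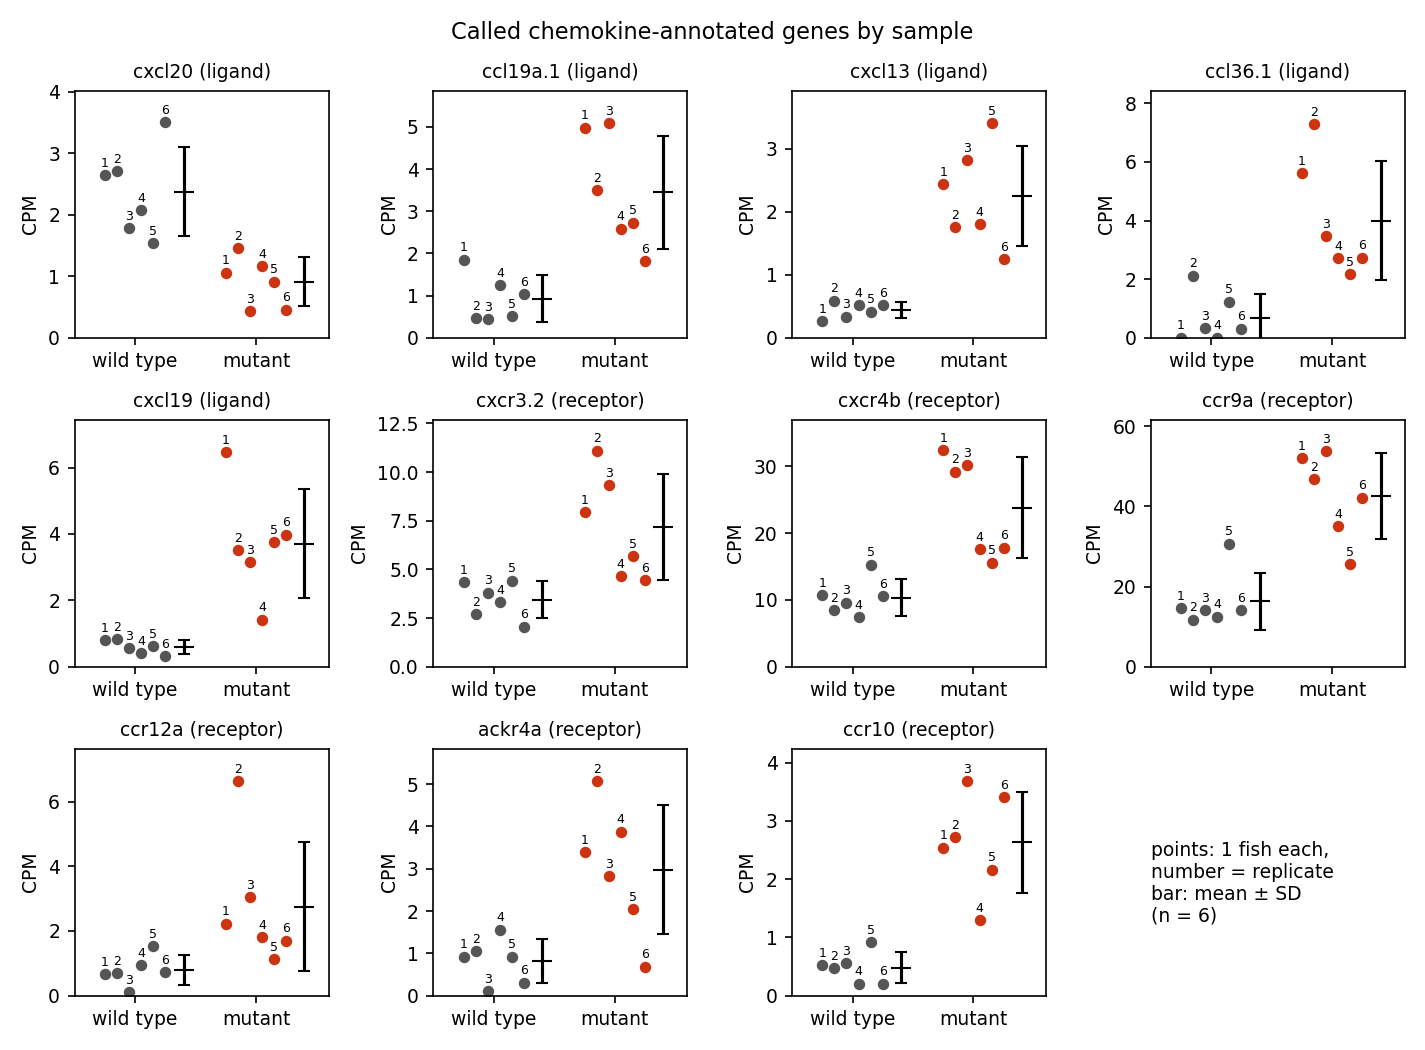
CPM of the 11 called chemokine genes in each of the 12 fish (points, numbered by replicate), with the mean and SD of each genotype as a bar (n = 6 each). The 5 ligands come first and the 6 receptors after them. Only cxcl20 is lower in the mutants, and mutant replicates 1, 2 and 3 are the 3 highest mutants for 6 of the 10 genes that rose.

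The fish differed from each other within a genotype in a way that many of these genes shared. Mutant replicates 1, 2 and 3 were the 3 highest mutants for 6 of the 10 genes that rose (ccl19a.1, ccl36.1, ccr9a, ccr12a, cxcr3.2 and cxcr4b). Wild-type replicate 5 was the highest wild-type fish for 5 of the 10. The summed TPM of all receptors was 197 to 211 in mutant replicates 1 to 3, 96.4 to 145 in mutant replicates 4 to 6, 154 in wild-type replicate 5 and 58.6 to 81.9 in the other 5 wild-type fish. The replicates carry no batch or order in the labels.

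Summed markers of blood vessels were also higher in mutant replicates 1 to 3 than in mutant replicates 4 to 6. Summed markers of endothelium had 358 to 459 CPM in mutant replicates 1 to 3, 168 to 231 CPM in mutant replicates 4 to 6 and 155 to 491 CPM in the wild type. The highest wild-type value was that of replicate 5. Wild-type replicates 2, 4 and 6 had 335 to 360 CPM, and wild-type replicates 1 and 3 had 203 and 155 CPM. Mutant replicates 1 to 3 also differed from mutant replicates 4 to 6 in summed muscle markers (2047 to 3386 against 1511 to 1608 CPM). Summed retina markers differed in reverse (33327 to 35190 against 37484 to 49286 CPM). The part of these tissues in the levels of the chemokine genes was not tested. Of 16 tested endothelial markers 1 was called, the receptor tyrosine kinase gene tek, which was lower in the mutants.

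Known ligands and receptors were set side by side to see whether both sides of a pair moved. Differences between the fold changes of a ligand and of its receptor were not tested. Cxcl12 is sensed by Cxcr4 and removed by Ackr3. Of the 6 genes, cxcr4b alone was called. The log2 fold changes of the others were 0.14 for cxcl12a, 0.37 for cxcl12b, 0.28 for cxcr4a (SE 0.49), 0.29 for ackr3a (SE 0.32) and 0.17 for ackr3b. The summed TPM of both cxcl12 genes ran from 33.5 to 147 in the wild type and from 50.5 to 161 in the mutants. The lowest value was that of wild-type replicate 3, the sample nearly free of crystallin RNA.

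For Ccl25 and Ccr9, the receptor ccr9a rose, while ccl25b and ccl25a had log2 fold changes of -0.42 and -0.50 (SE 0.40, adjusted p = 0.456). The second receptor, ccr9b, had 7 counts over the 6 wild-type samples and 7 over the 6 mutants. The level of ccl25b exceeded that of ccr9a in every sample, with 116 to 264 TPM against 10.03 to 32.6 TPM in the wild type and 69.1 to 211 TPM against 27.1 to 57.5 TPM in the mutants.

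For Ccl19, the ligand gene ccl19a.1 and the scavenger ackr4a rose. The more abundant ligand ccl19b had a log2 fold change of -0.63 (SE 0.33, adjusted p = 0.231) and ackr4b one of 0.19. The signalling receptor ccr7 had 27 counts over the wild-type and 48 over the mutant samples and was not tested. In mammals CCR10 binds CCL27, and here ccr10 rose while ccl27b did not pass the test. Its paralog ccl27a, named after its values were seen, had 1.03, 2.28 and 4.24 CPM in the wild type and 3.11, 5.01 and 8.05 CPM in the mutants, a log2 fold change of 1.05 (SE 0.35, edgeR adjusted p = 0.0669).

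The receptor cxcr3.2 rose with hardly any RNA of its ligands in the eye. The 9 genes annotated as cxcl11 duplicates or cxcl11-like did not exceed 9 counts in a sample, and none of them passed the filter. Their counts summed to 6 to 24 per wild-type and 3 to 13 per mutant sample. At this depth no difference in these ligands was detectable. Counts were likewise low for the cxcl8 genes, which are of interleukin-8 type, and for the cxcr1-like gene and cxcr2. Other ligands that may act on these receptors were not assessed. The genes cxcl8a and cxcl8b.1 had 36 and 45 counts over the wild-type and 59 and 50 over the mutant samples, the cxcr1-like gene had 4 and 19, and cxcr2 had 2 and 4. The ligand xcl32a.1 had 5 and 22 counts, and the 6 XC receptors had at most 17 counts in any sample.

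**Figure D4:**
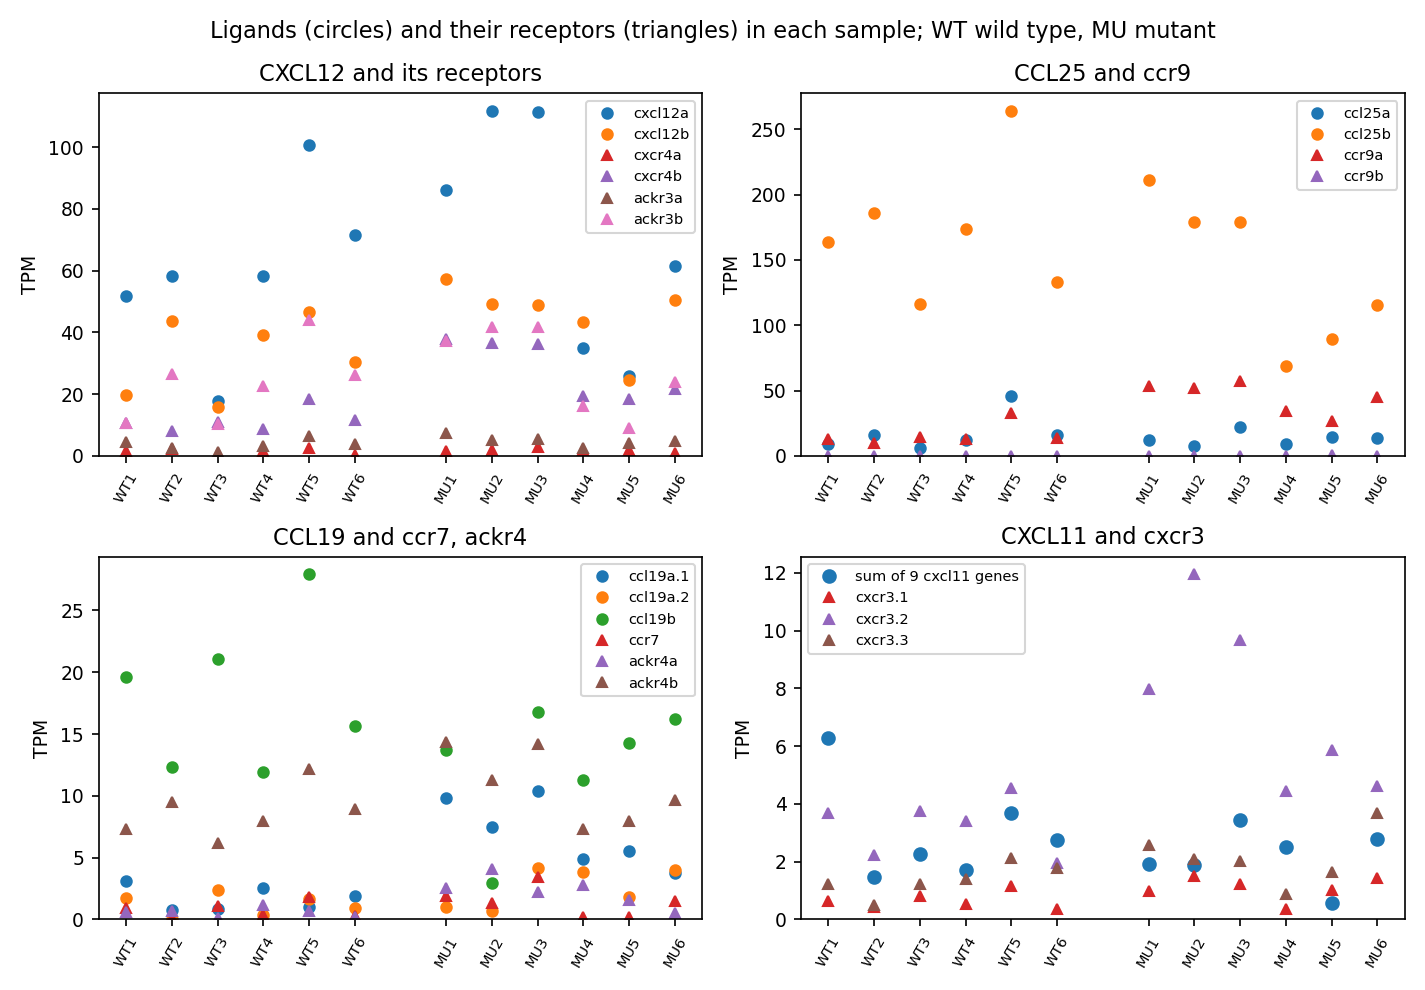
TPM in each sample (x axis, WT wild type, MU mutant, numbered by replicate) of ligands (circles) and the receptors known for them (triangles), in 4 panels for Cxcl12, Ccl25, Ccl19 and Cxcl11. The receptors ccr9a, cxcr4b and cxcr3.2 are higher in most or all mutants, while ccl25b, cxcl12a and cxcl12b overlap between the genotypes. The 9 cxcl11 genes are shown as their sum.

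The 62 genes that did not pass the filter were read from their counts and from a fit without the filter. That fit covered the 59 with at least 1 count. Over all 98 chemokine genes with a count it called 12 higher and 3 lower, where 3.3% and 1.17% of 27721 genes were called. DESeq2 called 15 higher and 3 lower of the 82 to which it gave an adjusted p, where 4.67% and 1.71% of 23909 genes were called. Among the untested genes 2 were called higher without the filter. The ligand cxcl32b.1 (chr24:27511783-27512616) had 0 to 4 counts per wild-type and 6 to 28 per mutant sample (log2 fold change 3.43, edgeR adjusted p = 0.0101). The ligand ccl34a.4 (chr2:40199002-40199780) had 0 to 6 and 5 to 57 counts (log2 fold change 2.36, edgeR adjusted p = 0.0344), with 57 of them in mutant replicate 2. All genes of this paragraph and the next fell outside the naming rule and were chosen after their values were seen.

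The most one-sided gene of the whole family was also one of low count. The CC ligand ccl38a.5 (chr20:38279523-38280392) had 8, 9, 12, 15, 5 and 21 counts in wild-type replicates 1 to 6 and 0, 0, 0, 0, 0 and 1 counts in mutant replicates 1 to 6. All 6 wild-type fish were above all 6 mutants. The summed counts were 70 and 1, a ratio of wild type to mutant of 70.2 after scaling, with an exact 95% interval of 12.2 to 2814 that covers counting error only. Without the filter the edgeR adjusted p was 0.00043. It lies in a run with ccl38.6 and ccl38a.4 within the span of ccl38a.3 on the same strand (chr20:38257661-38293054), so reads could be assigned to more than 1 of them. The gene ccl38a.3 had 20 counts over the wild-type and 1 over the mutant samples (ratio 20.1, interval 3.21 to 832, edgeR adjusted p = 0.0368 without the filter). The tested members of the run, ccl38.6 and ccl38a.4, had log2 fold changes of -1.25 (SE 0.45, adjusted p = 0.0901) and -0.71 (SE 0.54, adjusted p = 0.433). A further CC ligand, ccl35.2 (chr25:25173351-25175348), had no count in any wild-type sample and 11 over the mutants. Set against a floor of 3 counts over the group, the scaled ratio was 3.65, which leaves out the counting error of the 11 counts. The gene was not called by edgeR without the filter (adjusted p = 0.0501) and DESeq2 gave it no adjusted p. Among receptors, ccr11.1 had 4 counts over the wild-type samples, all in replicate 5, and 42 over the mutants. It was not called by edgeR without the filter (log2 fold change 3.14, adjusted p = 0.0553) and was called by DESeq2 (3.37, adjusted p = 0.0342).

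**Figure D5:**
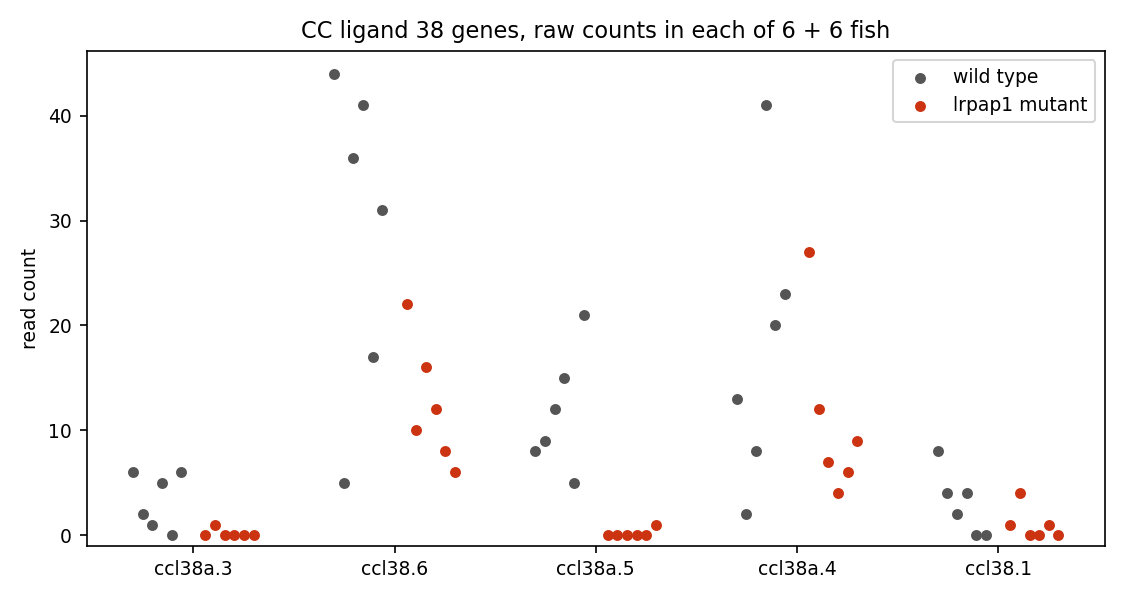
Raw read counts (y axis) of the 5 genes annotated as CC ligand 38 duplicates in each of 6 wild-type (grey) and 6 mutant (red) eyes. For ccl38a.5 all 6 wild-type samples have 5 to 21 counts and the mutants 0 or 1. The ranges of ccl38.6, ccl38a.4 and ccl38.1 overlap between the genotypes.

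Genes that act downstream of chemokine receptors were read from a list, beside the 3.68% of all tested genes that were called higher. Of 47 tested genes of a list for this signalling, 5 rose and the median log2 fold change was 0.20. It was positive for 34 of the 47, and for 8991 of all 18984 tested genes. None was called lower by edgeR, and DESeq2 called 5 higher and 1 lower. At an unadjusted p under 0.05, 19 were higher and 3 lower. The share of all tested genes at this unadjusted p is not given, here or for the lists below. The 5 were pik3r5 (log2 fold change 1.11, adjusted p = 0.0445), a regulatory subunit of phosphoinositide 3-kinase gamma, jak3 (1.15, 0.0246), a kinase of leukocytes, hck (1.11, 0.00115), a Src-family kinase of myeloid cells, rgs13 (1.56, 0.00137), which turns off G protein signals, and arhgdig (1.05, 0.000618). The values of rgs13 were 4.83 ± 1.63 CPM in the wild type and 14.3 ± 3.76 CPM in the mutants. Broadly used members such as gnb1a and gnb1b, subunits of G proteins, carried most of the summed level of this list, which was 3649 to 4597 CPM in the wild type and 3897 to 4567 CPM in the mutants. Mutant replicates 1, 2 and 3, high for many chemokine genes, were the 3 lowest mutants for this sum, with 3897 to 3939 CPM.

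Of 21 tested genes for the adhesion and movement of leukocytes, 5 rose, and the median log2 fold change was 0.14. They were the integrin genes itgb2 (log2 fold change 1.25, adjusted p = 0.0339) and itgb7 (1.51, 0.0157), the selectin ligand selplg (1.58, 0.00102), and coro1a (1.17, 0.00565) and lcp1 (1.33, 0.00762), which organise actin in leukocytes. None was called lower by edgeR or DESeq2, and at an unadjusted p under 0.05, 6 were higher and 1 lower. In this table the listed symbol sell names selenoprotein L and not a selectin. Interferon-stimulated genes, the antiviral programme of cells, formed the list with the most calls. Of 27 tested, 19 rose, with a median log2 fold change of 1.28. Their summed level was 469 to 697 CPM in the wild type and 942 to 1447 CPM in the mutants, highest in mutant replicates 1 and 3. The most abundant genes of this sum were b2m and socs3a. Cytokines that induce chemokines were mostly scarce, and 6 of the 27 that were measured could be tested. None of the 6 was called by edgeR, 1 was higher at an unadjusted p under 0.05, and DESeq2 called 2 of the 27 higher.

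Some markers of leukocytes, the cells best known for carrying chemokine receptors, rose as well. Their part in the chemokine results was not tested, and no marker on the leukocyte lists was at 0 in every sample. Of all tested genes, 3.68% were called higher and 0.874% lower by edgeR. Of tested markers of macrophages and microglia 8 of 21 rose. The summed levels of this list, 1060 to 1491 CPM in the wild type and 1203 to 1603 CPM in the mutants, overlapped. At an unadjusted p under 0.05, 13 markers of macrophages and microglia were higher and 1 lower. For dendritic and mast cells, 5 were higher and 1 lower at this p. Of tested markers of T and NK cells 4 of 18 rose (94.4 to 139 against 140 to 216 CPM), of neutrophils 1 of 12 (38.2 to 94.8 against 59.8 to 189 CPM), of B and plasma cells 2 of 7 (44.9 to 57.8 against 59.1 to 83.1 CPM), and of dendritic and mast cells 3 of 10 (555 to 1129 against 817 to 1615 CPM). The summed T and NK markers and the summed B and plasma markers did not overlap between the genotypes, unlike those of the other leukocyte lists. The most abundant genes of these sums were dusp2 and runx3 for T and NK cells and ebf1a and syk for B and plasma cells. Those of the macrophage and microglia sum were apoeb and lgmn. None of these genes was called, so the sums and the calls reflect different markers. The summed neutrophil markers were 121 to 189 CPM in mutant replicates 1 to 3 and 59.8 to 80.3 CPM in mutant replicates 4 to 6, the same fish as above. Markers of retina, lens, muscle and erythrocytes mostly had negative log2 fold changes, while those of epithelium and endothelium had both signs. Positive values were found for 3 of 20 tested retina, 1 of 17 lens, 1 of 11 muscle and 1 of 8 erythrocyte markers. Of all 18984 tested genes, 8991 had a positive value. Among epithelial markers 9 of 14 were positive, and among endothelial markers 8 of 16. What this lean means for the chemokine levels was not tested. Of epithelial markers 5 of 14 rose, with summed levels of 12554 to 18813 CPM in the wild type and 11861 to 22477 CPM in the mutants. Of erythrocyte markers 2 of 8, the alpha globin genes hbaa1 and hbaa2, fell (summed levels 898 to 2479 against 795 to 1282 CPM). Of 20 retina markers 1 fell (opn1mw1), and at an unadjusted p under 0.05 6 were lower and 0 higher. The share of all tested genes at this unadjusted p is not given, so the 6 cannot be set against it. One gene fell among 11 muscle markers (acta1b; summed muscle markers 1227 to 3848 against 1511 to 3386 CPM). Of 17 tested lens markers none was called by edgeR or DESeq2 and none had an unadjusted p under 0.05, with 126 CPM in wild-type replicate 3 and 10194 to 23464 CPM in the other samples.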

How the data were processed

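Poly(A) RNA from the eyes of 6 wild-type and 6 lrpap1 mutant fish was sequenced on an Illumina HiSeq2500. Per the labels and methods, the authors aligned reads with HISAT2 2.1.0 to GRCz11 and deposited raw counts per gene and TPM. The counting program and its strand setting are not given in the sources used here. Genotypes were compared on the counts by the quasi-likelihood test of edgeR 4.0.16 (R 4.3.3), after filterByExpr and TMM scaling and with no term other than genotype. The Benjamini-Hochberg adjustment ran over 18984 genes. Deposited TPM values entered no test. They served to compare genes by level and to describe levels and sums by sample and genotype. The thresholds for a call, adjusted p under 0.05 with a log2 fold change beyond 1 in either direction, were those of the study. The study used DESeq2, run here as an alternative (1.42.0), as was limma 3.58.1 (voom with quality weights). Other alternatives were RLE scaling, library size only, no filter, at least 10 counts in every sample, a replicate block, crystallin genes left out, no minimum fold change, and each sample left out in turn. Standard errors were taken as the absolute log2 fold change over the square root of the F statistic.

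The chemokine genes and the 15 gene lists were chosen with earlier results of these data known. Named with values were all called chemokine genes, those absent in 1 genotype and over 10 counts in a sample of the other (none was found), the 5 ligands and 5 receptors with the highest mean TPM, those that passed the adjusted p alone, and known pairs of ligand and receptor. No sample was a copy of another, since the chi-square between the most similar ones, divided by its degrees of freedom, was 7.02. Of the 101 genes, 94 had a symbol in a RefSeq table of another assembly, used for names only. The fit was tested on simulated counts, where it found 192 of 200 changed genes with 2 false calls. The changes were placed only in genes above a set mean count. Scarce genes such as ccr10 and cxcl13 lie below it, so the simulation does not cover them. The 192 and the 2 are totals that are not split by fold change. How well the fit finds the more abundant called genes, at their own fold changes, was not tested. Intervals of counts cover counting error only. The labels name no batch.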

Additional observations from a re-analysis of the deposited data

Results flagged for a closer look

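The 11 called genes, those that passed the adjusted p alone and the leading ligands and receptors were checked. In their 40 groups of 6 samples, 3 had a sample far from the rest. Chance alone gives about 1 in 20. For ccr12a, mutant replicate 2 had 6.62 CPM, while the other mutants had 1.14 to 3.03 CPM. For ccr9a, wild-type replicate 5 had 30.7 CPM, while the other wild-type fish had 11.8 to 14.5 CPM. For cxcl12b, mutant replicate 5 had 36.2 CPM, while the other mutants had 68.8 to 86.4 CPM.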

How the results depend on the processing

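For the 11 called genes, 189 of 212 values under an alternative that tested the gene kept the call, 23 lost it and none changed direction. The calls of ccl19a.1, ccr10, ccr9a, cxcl13, cxcl19 and cxcr4b held under every alternative that tested the gene. With at least 10 counts in every sample, only ccr9a, cxcr4b and cxcr3.2 of the 11 were tested. The call of ccr12a was lost in 9, that of ackr4a in 6, those of ccl36.1 and cxcr3.2 in 3 each and that of cxcl20 in 2. With at least 10 counts in every sample, which removes scarce genes by construction, 3 chemokine genes were called higher, all 3 of them receptors, with 0 ligands higher and 0 genes lower. DESeq2 called 8 ligands higher and 3 genes lower, no filter gave 3 genes lower, and with no minimum fold change 2 were lower. The cause of these differences beyond the number of genes tested was not tested. Leaving out 1 sample in turn gave 6 to 11 genes higher (6 without wild-type replicate 6 or mutant replicate 2), 0 to 2 lower, 3 to 5 ligands higher and 3 to 6 receptors higher (3 without wild-type replicate 6, mutant replicate 2 or mutant replicate 3). Under the same omissions the uncalled log2 fold change of ccl27b lay between -0.081 (without wild-type replicate 3) and 0.27, and that of cxcl12a between -0.031 (without wild-type replicate 3) and 0.34, with -0.0025 without mutant replicate 3. Over all alternative settings, the median of ligands lay between -0.10 (with limma voom) and 0.06 and that of receptors between 0.53 and 0.85. The replicate numbers did not pair the samples, since the correlations of same-numbered samples lay between -0.269 and 0.095 and only replicate 1 correlated best with its own number. With the replicate block, 640 genes were called in place of 864, 9 chemokine genes were called higher, all 9 of them also without it, and 0 lower, with edgeR adjusted p values of 0.121 for ccr12a and 0.0586 for cxcl20. Low counts limit what can be said of the 62 untested genes.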
